A study of Rattus norvegicus with 6 samples.

Results

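Elastases, chymotrypsins and pancreatic carboxypeptidases make up, with the trypsins, the protein-digesting enzymes of pancreatic juice. The genes looked for were Cela1, Cela2a and Cela3b (elastases), Ctrb1, Ctrc and Ctrl (chymotrypsins) and Cpa1 and Cpb1 (carboxypeptidases). They were taken as all probe sets whose platform annotation gives 1 of these symbols and no other. Of the 8 genes, 7 were found, each on 1 probe set, among 10411 genes with such a probe set on the array. Cela3b is not reported, since no probe set carries its symbol in the annotation used here.

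Pancreas from 3 rats on a control diet was compared with pancreas from 3 rats on an ethanol diet, 1 array per rat, to ask what chronic ethanol consumption does to gene expression in this organ. Every rat had 1 of these 2 diets and no other agent is named. The sources used here do not give strain, sex, age, diet composition or length of feeding. The samples were whole tissue, so fewer cells of a type and less RNA per cell cannot be told apart.

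Acinar cells, which form most of the exocrine pancreas, make these enzymes as inactive zymogens and store them in granules. In the gut, trypsin cuts off an activation peptide from each of them. Some elastases then cleave proteins after small aliphatic residues, and chymotrypsins cleave mostly after aromatic or other large ones. Carboxypeptidase A removes aromatic and aliphatic residues from the carboxyl end, and carboxypeptidase B removes basic ones. Their genes are switched on in acinar cells through PTF1, a transcription factor complex containing Ptf1a, which binds an E-box and a nearby TC-box in many of their promoters.

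The start regions of some of these genes are shown, with matches to the letters of those boxes marked where they occur. Binding at them was not tested. RefSeq promoters of the GRCr8 rat assembly, from 250 bases before to 50 after each start, were held for 7 of the 8 genes, Cela3b included and Cela2a not. Capitals mark CACCTG (the E-box) and TTTCCC (the TC-box), or their reverse complements, and each sequence runs 5′ to 3′ on the strand of its gene.
Cela1, chr7:133665137-133665196, minus strand: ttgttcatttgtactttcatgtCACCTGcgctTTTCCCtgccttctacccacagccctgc
Ctrb1, chr19:56567147-56567206, minus strand: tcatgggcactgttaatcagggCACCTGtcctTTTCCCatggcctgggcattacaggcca
Ctrl, chr19:50739117-50739176, minus strand: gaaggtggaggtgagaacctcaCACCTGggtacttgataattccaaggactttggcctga
Cela3b, chr5:154920471-154920530, minus strand: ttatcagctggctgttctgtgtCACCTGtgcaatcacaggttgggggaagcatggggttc
Prss2, chr4:71244834-71244893, plus strand: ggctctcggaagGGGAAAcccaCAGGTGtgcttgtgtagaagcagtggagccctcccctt

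Cela1 and Ctrb1 held both boxes in the same order and 4 bases apart, from 113 to 98 bases before the start in Cela1 and from 206 to 191 before it in Ctrb1. The combined motif CACCTGNNNNTTTCCC, searched on both strands, was present in 9 of 33469 promoters (0.0269%). Besides Cela1 and Ctrb1 these included the trypsinogen gene Prss2, which holds it on the opposite strand. The 4-base gap was chosen after the Cela1 and Ctrb1 sequences had been read. CACCTG alone, which is also part of that motif, was found on either strand in 6 of the 7 promoters, all but that of Cpa1, and in 18.8% of all promoters. In Ctrc its only match lay just after the start. In Cpb1, whose sequence is not printed, it lay from 157 to 152 bases before the start, on the opposite strand. TTTCCC alone was found in 3 of the 7 promoters (Cela1, Ctrb1 and Cela3b) and in 25.1% of all.

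Values are the deposited intensities, on a linear scale. The array maxima lay between 163449 and 171742, so the lowest of the 6 maxima, 163449, was used as the mark for the top of the range. Array medians were 543 or 544. Acinar markers other than these proteases were bright, with 7 of 8 measured and 4 of the 7 past 80% of that mark, and their summed intensity ran from 680730 to 696128 in control rats and from 710192 to 732662 in ethanol rats. Of the markers of other cell types, the 4 measured erythroid genes summed to between 15433 and 22883 in control rats and between 25617 and 33312 in ethanol rats. The 7 of 10 islet genes measured summed to between 148765 and 182333 in control rats and between 115964 and 181967 in ethanol rats. Most of that sum came from Ins1 and Ins2. Of the 7 islet genes, 4 were higher on average in ethanol rats and 3 (Ins1, Ins2 and Iapp) lower. Their median log2 change was 0.35, and limma called 0 of them, against 0.410% of all tested probe sets.

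None of the 7 proteases was called different between the diets, and 6 of the 7 read so near the top of the range that a change could be hidden. Against the lowest array maximum, their mean intensities stood at 89.9% and above, while Cela1 was at 70.3%. Over the whole array, 16 of 15866 probe sets (0.101%) had a mean at or past 80% of it, and 6 of those 16 were these proteases. The other 10 included the lipases Pnlip, Cel and Pnliprp2, the colipase Clps and the phospholipase Pla2g1b.

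Cela1 was the elastase further below the top of the range. It read 118166, 126995 and 111892 in control rats and 113067, 109991 and 109333 in ethanol rats. Control replicates 1 and 2 were above all ethanol rats, while control replicate 3 lay below ethanol replicate 1, so the diets overlapped. The means were 119018 ± 7587 and 110797 ± 1993 (SD, n = 3), a log2 change of -0.10 (ethanol minus control, SE 0.13, 95% interval -0.41 to 0.20, limma adjusted p = 0.718). As a fold, that interval runs from 0.754 to 1.15. On each array Cela1 lay at 65.8% to 76.1% of that array's maximum.

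Cela2a, the other elastase measured, read 148472, 153272 and 146692 in control rats and 153490, 144920 and 146535 in ethanol rats. Control replicate 2 and ethanol replicate 1 stood above the other 4 rats, 1 from each diet, and the diets overlapped. Its log2 change was -0.01 (SE 0.13, 95% interval -0.31 to 0.29, limma adjusted p = 0.973). Cela2a and Ctrc are neighbouring genes in the GRCr8 annotation.

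**Figure D1:**
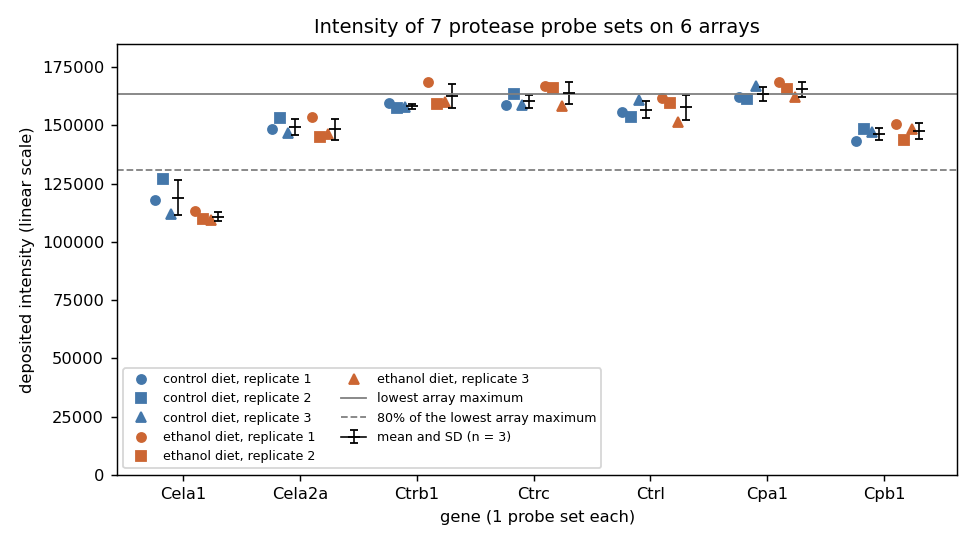
Deposited intensity (linear axis from 0) of each protease on each of the 6 arrays, with symbols for the replicates, the mean and SD of each diet, and lines at the lowest array maximum and at 80% of it. Cela1 is the 1 gene below the dashed line, and in all 7 genes the control and ethanol points overlap.

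Ctrb1, the major chymotrypsinogen, read 159503, 157629 and 157775 in control rats and 168511, 159336 and 159906 in ethanol rats. Ethanol replicate 1 stood above the other 5 arrays, and ethanol replicate 2 was below control replicate 1. The means were 158302 ± 1042 and 162584 ± 5141 (SD, n = 3), with a log2 change of 0.04 (SE 0.13, 95% interval -0.26 to 0.33, limma adjusted p = 0.90). Every Ctrb1 value was between 94.4% and 98.1% of its array's maximum.

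Ctrc, a chymotrypsin also known for degrading trypsinogen and trypsin, read 158869, 163457 and 158657 in control rats and 166913, 166099 and 158406 in ethanol rats. Ethanol replicates 1 and 2 were above all control rats and ethanol replicate 3 below all of them. The log2 change was 0.03 (SE 0.13, 95% interval -0.26 to 0.33, limma adjusted p = 0.924). In ethanol replicate 2 the Ctrc probe set was the brightest on the array.

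Ctrl, a chymotrypsin-like protease, read 155927, 153656 and 160765 in control rats and 161920, 159655 and 151600 in ethanol rats. Ethanol replicate 1 was the highest and ethanol replicate 3 the lowest of all 6, so the control values lay inside the ethanol range. Its log2 change, 0.01 (SE 0.13, 95% interval -0.29 to 0.31, limma adjusted p = 0.978), was the smallest in size of the 7.

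Cpa1, carboxypeptidase A1, read 162177, 161528 and 166828 in control rats and 168642, 165457 and 162409 in ethanol rats. Control replicate 3 lay between ethanol replicates 1 and 2, and the diets overlapped. Its log2 change was 0.02 (SE 0.13, 95% interval -0.28 to 0.31, limma adjusted p = 0.957). Cpa1 was between 96.7% and 100% of its array's maximum, and in control replicate 3 it was itself that maximum.

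Cpb1, carboxypeptidase B1, read 143466, 148395 and 147054 in control rats and 150666, 143824 and 148497 in ethanol rats. The lowest rat of each diet, control replicate 1 and ethanol replicate 2, lay side by side, and the diets overlapped. Its log2 change was 0.01 (SE 0.13, 95% interval -0.28 to 0.31, limma adjusted p = 0.967). Its values were between 86.6% and 90.1% of the array maximum.

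Across the family 5 proteases were higher and 2 lower on average in ethanol rats, with a median log2 change of 0.013 beside 0.00020 over all 9520 tested probe sets. All 7 passed the intensity filter. Limma called 0 of the 7, against 0.410% of all tested probe sets, and 0 of the 7 had an unadjusted p under 0.05, against 18.4%. The groups separated without overlap on 0 of the 7, against 25.4%. A p that misses the threshold does not show equal levels. The intervals allow folds from 0.754 to 1.26 at their widest, and for the 6 genes near the top of the range they cover the spread between rats and not what the top of the range may hide.

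Within a diet the rats hardly differed on these probe sets. The within-diet SD of the log2 values ran from 0.026 for Cpa1 to 0.067 for Cela1, against a median of 0.22 over all tested probe sets. At most 2.68% of tested probe sets had a smaller SD than any of the 7. This SD fell with brightness over the whole array. Its median was 0.26 over the 4879 tested probe sets with mean intensity under 1000. Over the 108 between 20000 and 50% of the lowest array maximum it was 0.10. It was 0.061 over the 9 between 50% and 80%, Cela1 among them, and 0.036 over the 16 at 80% or more. The proteases shared their small spread with other probe sets of like brightness, and any part of a ceiling in it was not tested. Limma draws each probe set's variance toward that of the others, so its SE of 0.13 exceeded the 0.021 to 0.055 that the proteases' own spread gives. When the variance was allowed to follow intensity, the SE was between 0.046 and 0.058. The 95% interval of Cela1 was then -0.23 to 0.03 and that of Ctrb1 -0.07 to 0.14, and 0 of the 7 were called, against 2.62% of all tested probe sets (lowest limma adjusted p = 0.363, for Cela1).

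**Figure D2:**
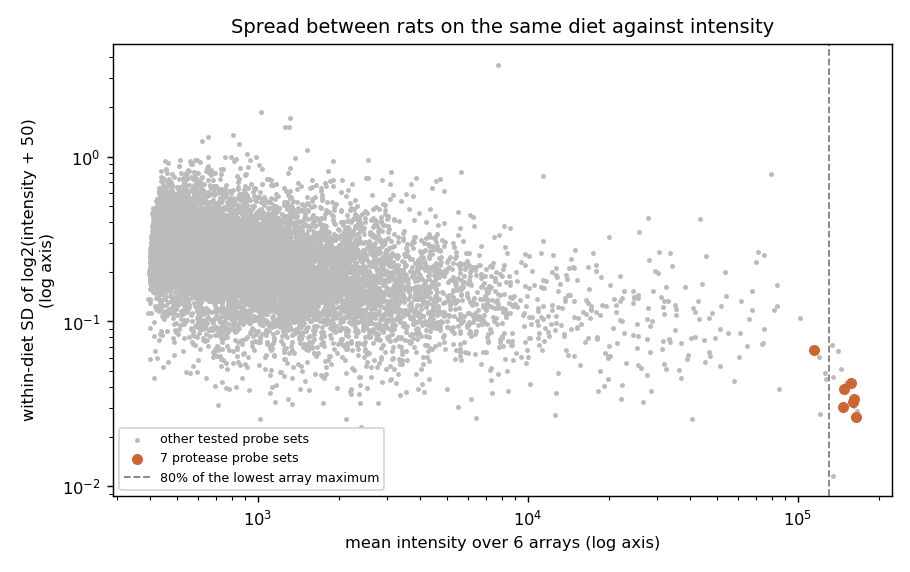
Within-diet SD of log2(intensity + 50) against mean intensity over the 6 arrays, both on log axes, for the 9520 tested probe sets, with the proteases in orange and a dashed line at 80% of the lowest array maximum. The proteases lie at the bright, low-spread end, with SDs from 0.026 to 0.067.

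The proteases tended to be high on the same array. Ethanol replicate 1 gave the highest value for 6 of the 7, Cela1 being the exception, and its median deviation from each gene's mean was 0.043 on the log2 scale. Ethanol replicate 3 gave the lowest value for 3 (Cela1, Ctrc and Ctrl). Ethanol replicate 1 also had the highest array maximum, 171742, which was the value of the lipase Pnlip. The intensity summed over all probe sets used was lowest on that array, at 23056683. The lowest insulin values were there too: Ins2 read 54741 against 71331 or more elsewhere, and Ins1 read 51353 against 64521 or more. The part of array scale or of islet content in the protease values was not tested. With each array divided by its own maximum, the change of Ctrb1 was 0.02 and that of Cela1 -0.12, and limma called 0 of the 7, against 0.431% of all tested probe sets. That maximum was Cpa1 in control replicate 3, Ctrc in ethanol replicate 2 and Pnlip in ethanol replicates 1 and 3. Such scaling sets the proteases partly against themselves, so it cannot separate array scale from enzyme level.

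**Figure D3:**
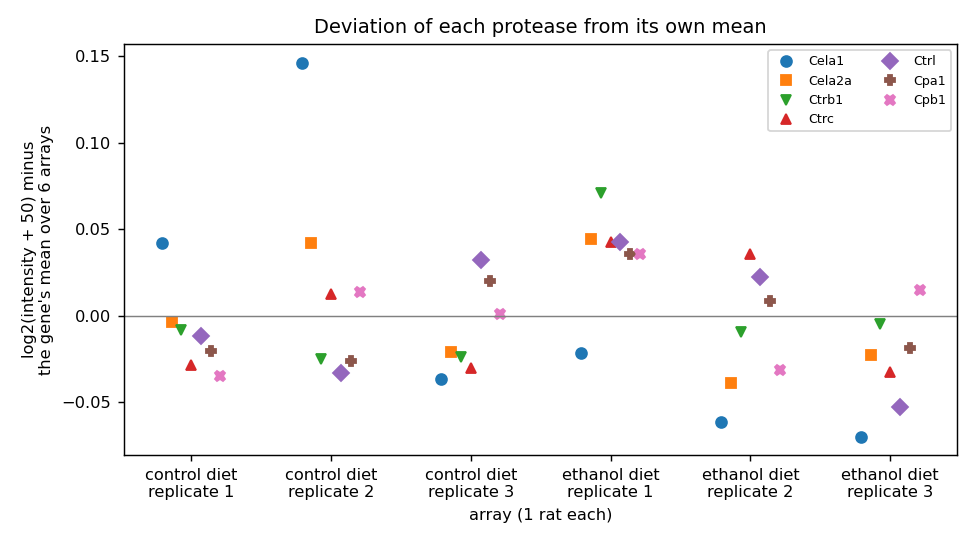
Deviation of each protease from its own mean over the 6 arrays, as log2(intensity + 50), by array. All genes but Cela1 are above 0 in ethanol replicate 1, and Cela1 in control replicate 2 stands highest at 0.15.

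Cela1 was also set against the other 6 on the same array. Its log2 value minus the median of the others was -0.41, -0.29 and -0.50 in control rats and -0.54, -0.54 and -0.50 in ethanol rats. The ethanol rats were all lower, though ethanol replicate 3 and control replicate 3 were both at -0.50. The difference of the diet means was -0.12, and since it was chosen after the values were seen it has no test. As 6 of the probe sets in this contrast are near the top of the range, unequal room to vary could not be told apart from unequal change.

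Over the 6 arrays, the 5 genes whose log2 values were most alike to the mean protease profile were Tex19.2 (Pearson r = 0.984), Depdc5 (r = 0.980), Spcs2 (r = 0.976), Dnm1 (r = 0.974) and Vangl2 (r = 0.963). They came out of 7986 probe sets compared on only 6 arrays, so the values are descriptions with no test. Spcs2 encodes a subunit of the signal peptidase complex, which trims secreted proteins as they enter the endoplasmic reticulum. Its intensity was 6410 ± 270 under the control diet and 6328 ± 659 under ethanol (SD, n = 3; log2 change -0.02, SE 0.14).

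The other enzymes of pancreatic juice gave a background for the proteases. Of 23 listed, 11 were measured, and limma called 0 in either direction. An unadjusted p under 0.05 was seen for 0 higher and 1 lower in ethanol rats, against 18.4% of all tested probe sets. The median log2 change of the 11 was 0.058. The amylase Amy1, with the smallest p, read 10886, 12628 and 10754 in control rats and 5918, 5704 and 6724 in ethanol rats, so the groups did not overlap (log2 change -0.90, SE 0.15, limma adjusted p = 0.0524). Amy1 lay far below the ceiling, at 5.36% of the lowest array maximum.

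Amy1 was called by limma under 5 of the alternatives tried. The trypsinogen Prss2, whose product activates the other zymogens, had a log2 change of 0.20 (SE 0.14). The lipase-related protein Pnliprp1 was at 0.12 (SE 0.13) and the lipase Pnlip at 0.10 (SE 0.13), both not called. For Prss2, Pnliprp1 and Pnlip all 3 ethanol rats lay above all 3 control rats, an order that none of the 7 proteases showed. Groups without overlap, in either direction, were seen on 25.4% of all tested probe sets. Pnlip stood at 98.4% of the lowest array maximum. A difference between these other enzymes and the proteases was not tested.

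**Figure D4:**
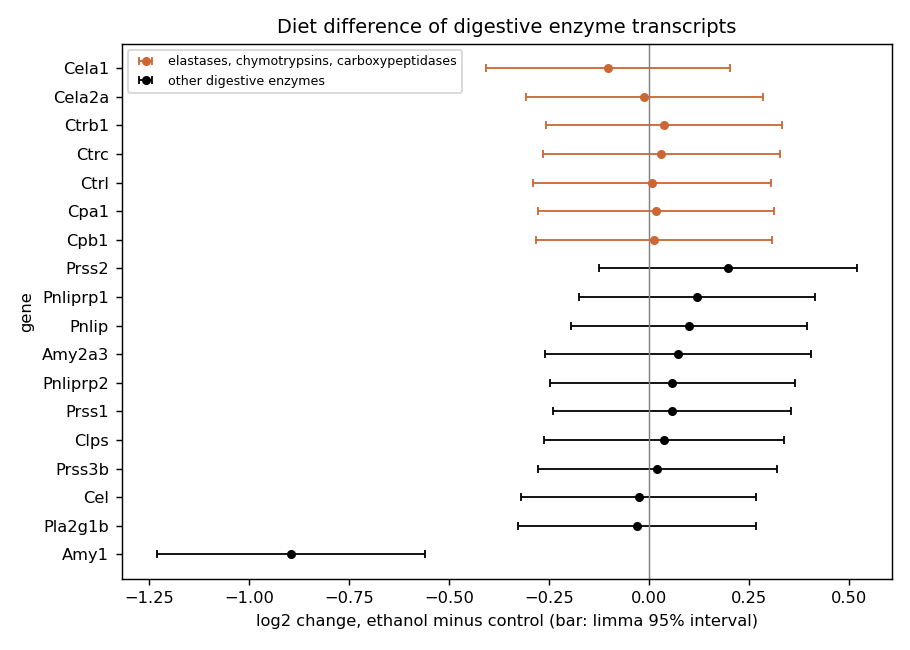
Log2 change (ethanol minus control) with limma's 95% interval for the 7 proteases, in orange, and the 11 other digestive enzymes measured, in black. The proteases lie between -0.10 and 0.04 with intervals across 0, and Amy1 lies apart at -0.90.

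Among protease inhibitors, 5 of 10 listed were measured (list median 0.073). Limma called 0 of them, against 0.410% of all tested probe sets, and 0 had an unadjusted p under 0.05, against 18.4%. The trypsin inhibitors Spink1l and Spink1 were at 0.24 (SE 0.14) and 0.07 (SE 0.18), the serpins Serpina1 and Serpini2 at 0.17 (SE 0.13) and -0.09 (SE 0.14). Transcription factors of acinar cells were measured for 9 of 12 listed, and limma called 0 of them (list median -0.093). Unadjusted p fell under 0.05 for 1 that was higher and 2 that were lower, against 18.4% of all tested probe sets. Ptf1a, the factor whose binding letters are shown above, read 9361, 8759 and 10111 in control rats and 12259, 12386 and 14084 in ethanol rats. All ethanol rats were above all control rats, and the log2 change of 0.45 (SE 0.14) did not pass (limma adjusted p = 0.161). Of the 9 factors, 2 separated upward without overlap (Ptf1a and Gata6) and 2 downward (Xbp1 and Foxa3). Over all tested probe sets, 25.4% separated in either direction.

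Xbp1, which drives the secretory apparatus, was at -0.50 (SE 0.15, limma adjusted p = 0.149), Foxa3 at -0.61 (SE 0.19) and Gata6 at 0.27 (SE 0.16), none of them called. Of 18 granule and secretion genes listed 15 were measured and limma called 0 of them (list median -0.0099). Unadjusted p fell under 0.05 for 2 that were higher and 2 that were lower, against 18.4% of all tested probe sets. The smallest p values belonged to the membrane fusion protein Snap23 (0.57, SE 0.13), the granule GTPase Rab3d (-0.62, SE 0.17), Scamp1 (0.36, SE 0.14) and Rab27b (-0.48, SE 0.19).

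Relatives of these proteases that are made mainly in other tissues, such as the mast cell carboxypeptidase Cpa3 and the liver carboxypeptidase Cpb2, were dim. Of 29 listed, 12 were measured, each with a mean intensity of at most 2713. Limma called 0 of the 12, and 0 had an unadjusted p under 0.05, against 18.4% of all tested probe sets. The median log2 change of the 12 was -0.014. The smallest p values were those of Cpxm2 (0.47, SE 0.24), the membrane protease St14 (-0.23, SE 0.15), the plasma carboxypeptidase Cpn1 (-0.35, SE 0.27) and Agtpbp1 (-0.18, SE 0.17). Mast cell markers, of which Cpa3 is 1, summed to between 2655 and 3538 in control rats and between 2815 and 3633 in ethanol rats over 3 of 8 genes measured.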

How the data were processed

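Per the labels' protocols, total RNA was made into biotin-labelled cRNA, and each rat gave 1 array. The authors deposited intensities, 1 whole number per probe set and array; the sources used here name neither software nor normalization. They share nearly 1 distribution, so a difference in total RNA cannot be seen. Of 15923 probe sets, 57 controls were left out. Values below 0 were set to 0, 50 was added and the log2 taken. Tests covered the 9520 of 15866 probe sets whose mean log2 reached the 40th percentile. The main test was limma 3.58.1 (R 4.3.3; 2 groups, no block), with Benjamini-Hochberg adjustment over all tested probe sets and a call at an adjusted p under 0.05. List genes stand on their kept probe set of highest mean, and the 4 of smallest p per list are named. The number of arrays limits the precision. The procedure was tested on simulated data. Members, lists and tests were chosen with earlier results of these data known. Paralogues such as other chymotrypsinogens or elastases can share signal with a probe set, so its value is uncertain to that extent. No array build is given, so coordinates are those of the GRCr8 promoters.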

Additional observations from a re-analysis of the deposited data

How the results depend on the processing

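Limma called none of the 7 proteases under any of the 16 alternatives tried, and their median log2 change moved by less than the spread between rats. Signs near 0 turned: with quantile normalization Cpa1 was at -0.0056 and Ctrl at -0.0078, and with each array divided by its own maximum, an alternative chosen after seeing the data, Cpb1 was at -0.0024 and Ctrl at -0.0073. With 1 array left out, Cela2a ran from -0.036 to 0.0067, Cpb1 from -0.0015 to 0.032 and Ctrl from -0.011 to 0.037, while Cela1 stayed negative (-0.14 to -0.054). The count over all tested probe sets, 39, was 12 with a constant of 20, 0 by limma without a filter (where 2263 had an unadjusted p under 0.05), 134 with a filter at the 60th percentile, 249 with a variance trend, 228 at an adjusted p under 0.10, 6 with the replicate block and from 2 to 38 with 1 array left out. Of the other digestive enzymes 1 was called, Amy1, with a constant of 100, with the 60th percentile filter, with a variance trend, at an adjusted p under 0.10 and with probe sets averaged per gene, against 0 otherwise. The cause of these shifts was not tested. Deviations of same-numbered arrays correlated at -0.030, 0.026 and -0.14 across probe sets, and those of differently numbered arrays at -0.076 to 0.095. Whether the rats were paired by design cannot be told from these values. The mark of 70% or 90% of the lowest maximum gave 7 or 5 proteases near the top instead of 6. Brightness near the array maximum, rather than dimness, may limit what can be read here, and saturation itself was not tested.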
